A study of Mus musculus with 18 samples.

Results

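The genes described here build and drive the motile cilia of ependymal cells, the cells that line the brain ventricles. They are 40 genes, taken from a fixed list of symbols for axoneme proteins, their assembly factors and ependymal markers, and all 40 were found among the 55401 genes of the count table. The list uses no measured value, although it was proposed with results of these data known. All 40 members also passed the filter on low counts, which kept 18994 genes. Messenger RNA was sequenced from the BNST, the bed nucleus of the stria terminalis, a limbic nucleus beside the lateral ventricle, and from the prelimbic part of the medial prefrontal cortex (mPFC). The study asked how acute and persistent pain change the transcripts of both regions. The mice of the acute pain model (Formalin) received 10 μL of 1% formalin in a hind paw 24 h before collection, and those of the persistent pain model (CFA) received 10 μL of 50% complete Freund's adjuvant 72 h before collection. Control mice (ctrl) had no injection of CFA or formalin by the study's methods, while captions of its RNA sequencing figures name sham-treated mice. Whether the injection itself or the time after it was matched by a control is therefore not known. The agent and the time differ together between the pain models. All mice were wild-type male C57BL/6 mice of 6 to 8 weeks. Each of the 6 groups of region and treatment holds 3 libraries, each from the tissue of 1 brain, which makes 18 libraries. By the study's methods both regions were taken from each brain, so the 18 libraries are not from 18 brains. Animal numbers match for 8 pairs of a BNST and an mPFC library. The tests did not pair them, except where an animal block is named.

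A motile cilium beats because dynein motors, arranged in an outer and an inner row along its microtubule doublets, slide the doublets against each other. Radial spokes and a central pair of microtubules regulate the motors, molecular rulers set their spacing, and proteins inside the doublets stiffen the axoneme. In the brain, ependymal cells carry tufts of such cilia that move the cerebrospinal fluid, and the epithelium of the choroid plexus, which hangs in the same ventricles, also has cilia. Foxj1 and the RFX factors are the transcription factors known to switch on the genes of motile cilia. RFX factors bind the X-box, an inverted repeat of an arm like GTTGCC followed by one like GGCAAC, and forkhead factors such as Foxj1 bind sites that resemble GTAAACA.

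To show what the members share in sequence, the 250 bases before each annotated start were searched for these letters on both strands. Neither motif contains the other. RefSeq sequences of the GRCm38.p6 build were matched for 33 of the 40 members, and 7 had no entry (Foxj1, Cfap54, Cfap65, Rsph1, Rsph4a, Dnah3 and Dnaaf1). The X-box arm, GTTGCC or its reverse complement GGCAAC, lay before a start of 12 of these 33 members, or 36.4%, against 11.8% of the 27025 genes searched in the same way. The 12 members were Ccdc153, Spag16, Hydin, Dnah7a, Dnah10, Drc1, Iqcg, Cfap44, Enkur, Mns1, Tekt1 and Tekt2. The forkhead letters, GTAAACA or TGTTTAC, lay before a start of 2 members, Ak7 and Cfap43, or 6.06%, against 3.54% of all genes searched. Such a match is a stretch of letters, not a site shown to be bound. The windows of 5 members are printed on the strand of the gene with these letters in capitals. Ccdc153 (chr9:44240427-44240676, + strand) is a strong ependymal marker with 1 exact X-box arm. Spag16 (chr1:69826720-69826969, + strand) has GGCAAC ahead of GTTGCC. In Hydin (chr8:110266727-110266976, + strand) the exact arm begins 13 bases before the start. Ak7 (chr12:105705732-105705981, + strand) has the forkhead letters. Odf3b (chr15:89379255-89379504, - strand), the member that passed the test after formalin, has neither set of letters. Only exact letters were searched. The letters after GTTGCC in Ccdc153 and Spag16, and those before GGCAAC in Hydin, resemble the other arm. Such inexact arms, and so full X-boxes, were not searched for or counted.
Ccdc153: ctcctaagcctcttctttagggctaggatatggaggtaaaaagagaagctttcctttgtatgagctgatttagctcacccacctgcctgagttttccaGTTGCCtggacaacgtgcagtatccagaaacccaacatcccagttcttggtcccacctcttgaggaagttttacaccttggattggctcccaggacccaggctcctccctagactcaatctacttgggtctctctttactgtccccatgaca
Spag16: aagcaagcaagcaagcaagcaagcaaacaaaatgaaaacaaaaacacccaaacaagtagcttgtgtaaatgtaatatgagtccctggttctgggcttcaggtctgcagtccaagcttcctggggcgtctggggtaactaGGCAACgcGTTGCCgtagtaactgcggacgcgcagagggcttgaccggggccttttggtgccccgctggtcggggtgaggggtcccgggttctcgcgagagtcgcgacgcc
Hydin: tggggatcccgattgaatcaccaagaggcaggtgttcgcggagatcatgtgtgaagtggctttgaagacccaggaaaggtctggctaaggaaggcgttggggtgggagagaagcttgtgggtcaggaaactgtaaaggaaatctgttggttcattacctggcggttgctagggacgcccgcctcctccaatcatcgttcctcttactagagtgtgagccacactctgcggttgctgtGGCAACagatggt
Ak7: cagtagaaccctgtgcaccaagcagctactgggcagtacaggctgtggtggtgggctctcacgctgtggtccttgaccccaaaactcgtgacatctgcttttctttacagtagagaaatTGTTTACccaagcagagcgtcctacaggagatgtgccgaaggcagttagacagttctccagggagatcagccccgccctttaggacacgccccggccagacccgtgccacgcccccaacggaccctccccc
Odf3b: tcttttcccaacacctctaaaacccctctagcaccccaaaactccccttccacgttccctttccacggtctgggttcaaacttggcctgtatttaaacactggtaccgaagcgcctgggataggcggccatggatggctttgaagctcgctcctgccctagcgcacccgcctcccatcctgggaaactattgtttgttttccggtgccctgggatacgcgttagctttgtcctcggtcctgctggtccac

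The libraries held 14781315 to 23408503 counts. Levels are given as CPM, counts brought to a common library size with TMM scaling, and fold changes come from 1 edgeR quasi-likelihood model of all 18 libraries. A gene is called where its Benjamini-Hochberg adjusted p over all 18994 genes is under 0.05 and its log2 fold change is beyond 0.5 in size, the thresholds of the study. Cortical pyramidal markers were lower in the control BNST than in the control mPFC for 9 of 10 genes, and 12 of 16 BNST and GABAergic markers were higher and 1 was lower. Some BNST libraries differed from others of their group in choroid plexus RNA. The 18 choroid plexus genes summed to 5774, 15161 and 10164 CPM after formalin, 630, 28844 and 500 CPM in the CFA libraries and 308, 1545 and 316 CPM in the ctrl libraries of the BNST. CFA replicate 2 therefore stood apart from the other CFA libraries, and every Formalin library lay above every ctrl library. Ttr, the transthyretin gene that defines this epithelium, ran from 2443 to 7328 CPM after formalin, from 117 to 15282 CPM after CFA and from 2.35 to 579 CPM in controls, and none of the 9 choroid markers examined one by one was at 0 in a BNST library. The lanes differed as well, in that ctrl replicates 1 and 2 of the BNST were sequenced in lane 1 and Formalin replicate 1 of the BNST in lane 3, while lane 2 held the remaining 15 libraries.

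After formalin, nearly all motile cilia genes stood higher in the BNST than in controls, but only 1 passed the test. Odf3b was called higher, and no member was called lower, while 0.195% of all genes tested were called higher in this comparison. The log2 fold change was above 0 for 39 of the 40 members, and its median was 0.93, against −0.04 over all genes tested. At an unadjusted p under 0.05, 32 members were higher and 0 lower, against 9.26% of all genes higher. In 32 members every Formalin library lay above every ctrl library, against 11.6% of all genes. The summed level of the 40 genes was 1168, 1302 and 1175 CPM in the Formalin libraries, against 720, 423 and 859 CPM in the ctrl libraries of the BNST. The groups did not overlap, and the ratio of their means was 1.82. In bulk tissue, more ciliated cells and more of these transcripts per cell cannot be told apart. The choroid genes moved with this result, since all 18 were higher at an unadjusted p under 0.05 with a median log2 fold change of 3.82, though 0 were called by edgeR. Markers of neighbouring tissue differed as well. Of 10 striatal genes, 0 were called, but 9 were lower at an unadjusted p under 0.05, against 10.4% of all genes, with a median of −0.74. Of 12 habenular and thalamic genes, 0 were called and 1 was lower at an unadjusted p under 0.05, with a median of −0.38. The part of these differences in the levels of the members was not tested. The count of calls among the members and the members' median moved with single libraries. Without ctrl replicate 2 of the BNST, the lowest of the 9 BNST libraries for 29 members, the median was 0.64 with 39 members above 0 and no member called. Without CFA replicate 2, which is in the same model but not in this comparison, 14 members were called higher, against 4.01% of all genes. Without ctrl replicate 3 of the BNST 4 members were called, without CFA replicate 3 of the BNST 3, and in 13 of the 18 fits 0. DESeq2, the tool that the study used, called 11 on all libraries. These were Cfap65, Cfap126, Dnaaf3, Dnaaf1, Rsph4a, Cfap54, Cfap52, Tekt1, Foxj1, Odf3b and Cfap43. The counts of 4, 3 and 11 are given without the share of all genes called in the same fit. Within lane 2, where the control BNST has 1 library, the median was 0.53 with 37 members above 0 and 0 called.

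**Figure D1:**
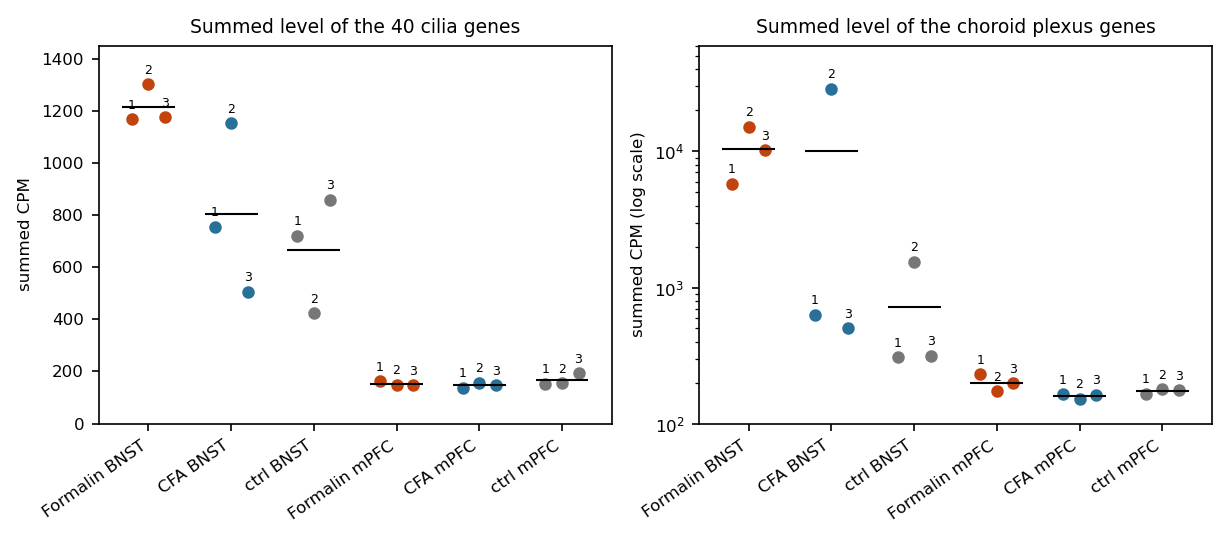
Summed CPM of the 40 cilia genes (left) and of the 18 choroid plexus genes (right, log scale) in each library, with 1 point per library, its replicate number above it and a bar at the group mean. The cilia genes summed to 1168 to 1302 CPM in the Formalin BNST libraries and to 423 to 859 CPM in the ctrl BNST libraries, and CFA replicate 2 lay apart from the other CFA libraries in both panels.

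After CFA, more of the same genes stood above than below the control level in the BNST, but the groups overlapped for all except 1. Tekt4 was the only member called higher and none was called lower, against 4.89% of all genes called higher and 7.06% called lower. The log2 fold change was above 0 for 29 members and below 0 for 11, with a median of 0.37, against 0.01 over all genes. At an unadjusted p under 0.05, 5 members were higher and Drc1 was lower, against 18.6% of all genes higher, and Tekt4 was the only member without overlap between the groups, against 15.4% of all genes. The summed level was 756, 1152 and 507 CPM in the CFA libraries, against 720, 423 and 859 CPM in the ctrl libraries, so the groups overlapped. Markers of neighbouring tissue differed between these groups as well. All 10 striatal genes were called lower after CFA, with a median of −2.60 and a summed level of 328 to 755 CPM after CFA, against 1663 to 3905 CPM in controls. Of 12 habenular and thalamic genes, 6 were called higher and 1 lower, with a median of 1.36 and 930 to 1437 CPM after CFA, against 382 to 1039 CPM in controls. Of the 18 choroid plexus genes, 1 (Folr1) was called higher and 17 were higher at an unadjusted p under 0.05, with a median of 3.51. The part of these differences in the levels of the members was not tested. CFA replicate 2 moved the median, which was 0.0062 with 22 members above 0 without it. Without CFA replicate 3, the lowest CFA library for 36 members, the median was 0.63 with 7 members called higher, a count given without the share of all genes. The median was 0.11 without ctrl replicate 2 of the BNST and 0.61 without ctrl replicate 3. Within lane 2 the median was −0.01 with 20 members above 0, and Drc1 was called lower.

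Set against CFA, formalin had the higher levels for 37 of the 40 members in the BNST, with a median log2 difference of 0.54, against −0.01 over all genes. Dnah2, Odf3b, Cfap54 and Spag17 were called higher after formalin and none was called lower, against 3.91% of all genes called higher, 2.96% lower and 6.87% in either direction. At an unadjusted p under 0.05, 14 members were higher and 0 lower, against 13.3% of all genes higher. The 3 Formalin libraries lay above the 3 CFA libraries for 13 members, against 14.3% of all genes. Markers of neighbouring tissue differed here too. Of 10 striatal genes, 8 were called higher after formalin and 0 lower, with a median of 1.80. Of 12 habenular and thalamic genes, 0 were called higher and 7 lower, with a median of −1.29. Of 8 hypothalamic genes tested, 0 were called higher and 4 lower. Of the 18 choroid plexus genes, 0 were called, with a median of 0.23. Their part in the levels of the members was not tested. CFA replicate 2 moved this comparison as well. Without CFA replicate 2, the median was 0.84 and 21 members were called higher after formalin, against 8.02% of all genes. Without CFA replicate 3 the median was 0.30. The counts of called members that follow are given without the share of all genes. The count was 9 without ctrl replicate 2 of the BNST, 6 without ctrl replicate 3, 2 without ctrl replicate 2 or CFA replicate 1 of the mPFC, and 1, which was Dnah2, without any 1 of the Formalin libraries or without CFA replicate 1 or 3 of the BNST.

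**Figure D2:**
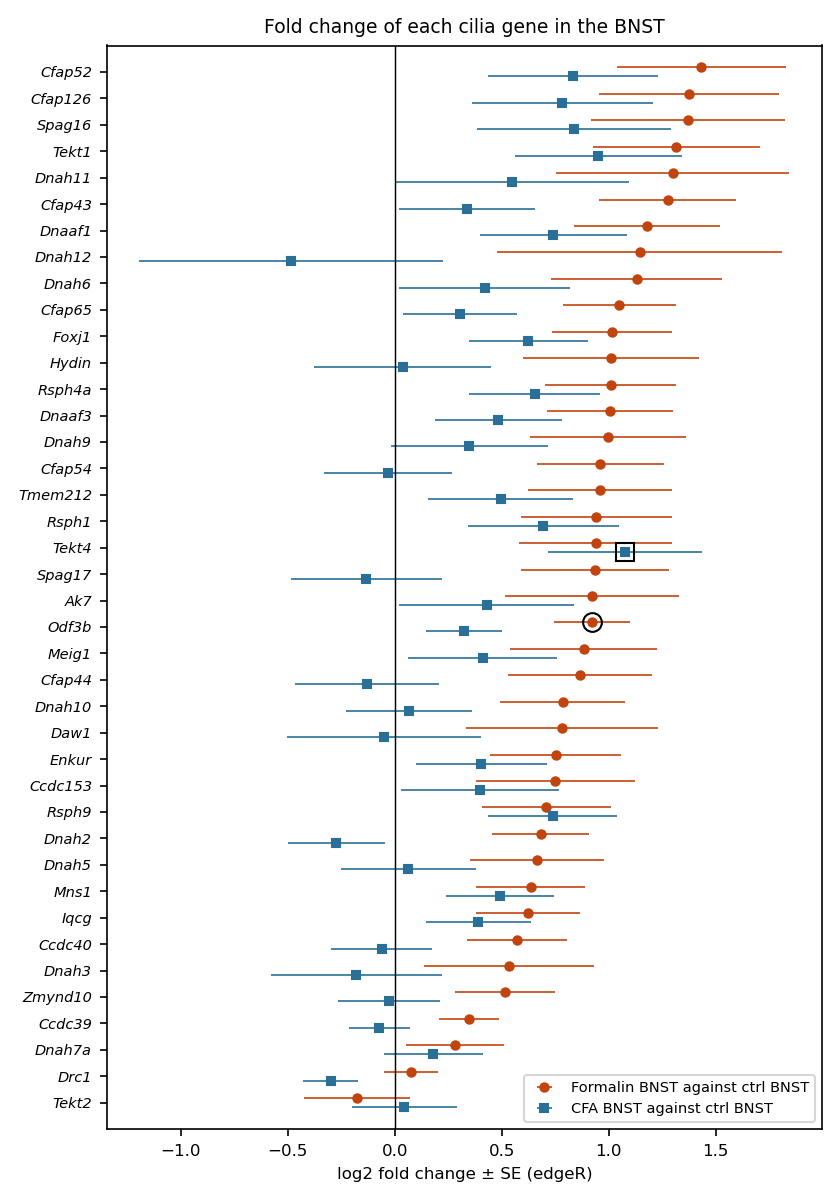
Log2 fold change with its standard error for each of the 40 cilia genes in the BNST, Formalin against ctrl (circles) and CFA against ctrl (squares), ordered by the formalin value. Black outlines mark Odf3b after formalin and Tekt4 after CFA, the members that passed the test. The values after formalin ran from −0.18 for Tekt2 to 1.43 for Cfap52.

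The members differed far more between the regions than between treatments. In control mice, 38 of the 40 members were called higher in the BNST than in the mPFC and 0 lower, against 14.7% of all genes called higher, and the median log2 difference was 2.82, against 0.04 over all genes. The same 38 passed at an unadjusted p under 0.05, against 25.2% of all genes, and Rsph9 and Ccdc39 were the exceptions. Without overlap between the control groups there were 37, against 25.3% of all genes. In 36 members, every one of the 9 BNST libraries lay above every one of the 9 mPFC libraries, a count given without the share of all genes. The summed level was 720, 423 and 859 CPM in the control BNST and 153, 156 and 194 CPM in the control mPFC. Each BNST library had counts for all 40 members, while 1 to 4 members were at 0 in each mPFC library. For Tmem212, 326 counts in the 3 control BNST libraries stood against 2 counts in the 3 control mPFC libraries, a ratio of 205 after division by the library totals, with an exact 95% interval of 56.4 to 1703 that covers counting error only. For Dnah12 the counts were 77 and 2, with a ratio of 48.5 (12.98 to 408).

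Ordered by TPM, which corrects for the length of the exons, Foxj1 led the members in the BNST with 114 ± 10.8 TPM after formalin, against 57.6 ± 17.4 TPM in controls (SD, n = 3 each). Ccdc153 followed with 88.8 ± 7.66 TPM after formalin, against 54.0 ± 23.2 TPM in controls, so these neighbours in the order did not differ beyond their spread in controls. Rsph1 came next with 81.5 ± 6.81 TPM after formalin, against 43.3 ± 14.3 TPM in controls. Dnah12 was last at 1.16 ± 0.70 TPM after formalin, against 0.55 ± 0.55 TPM in controls. In the control mPFC the order was another one. Drc1 led there at 26.9 ± 2.37 TPM, followed by Rsph9 at 23.4 ± 4.99 TPM and Ccdc39 at 20.02 ± 1.98 TPM, while the next member, Enkur, had 7.63 ± 2.73 TPM. Rsph9 and Ccdc39 overlap protein-coding genes on the other strand, Mrps18a and Ttc14, and how reads of such pairs were assigned is not given in the sources used here.

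**Figure D3:**
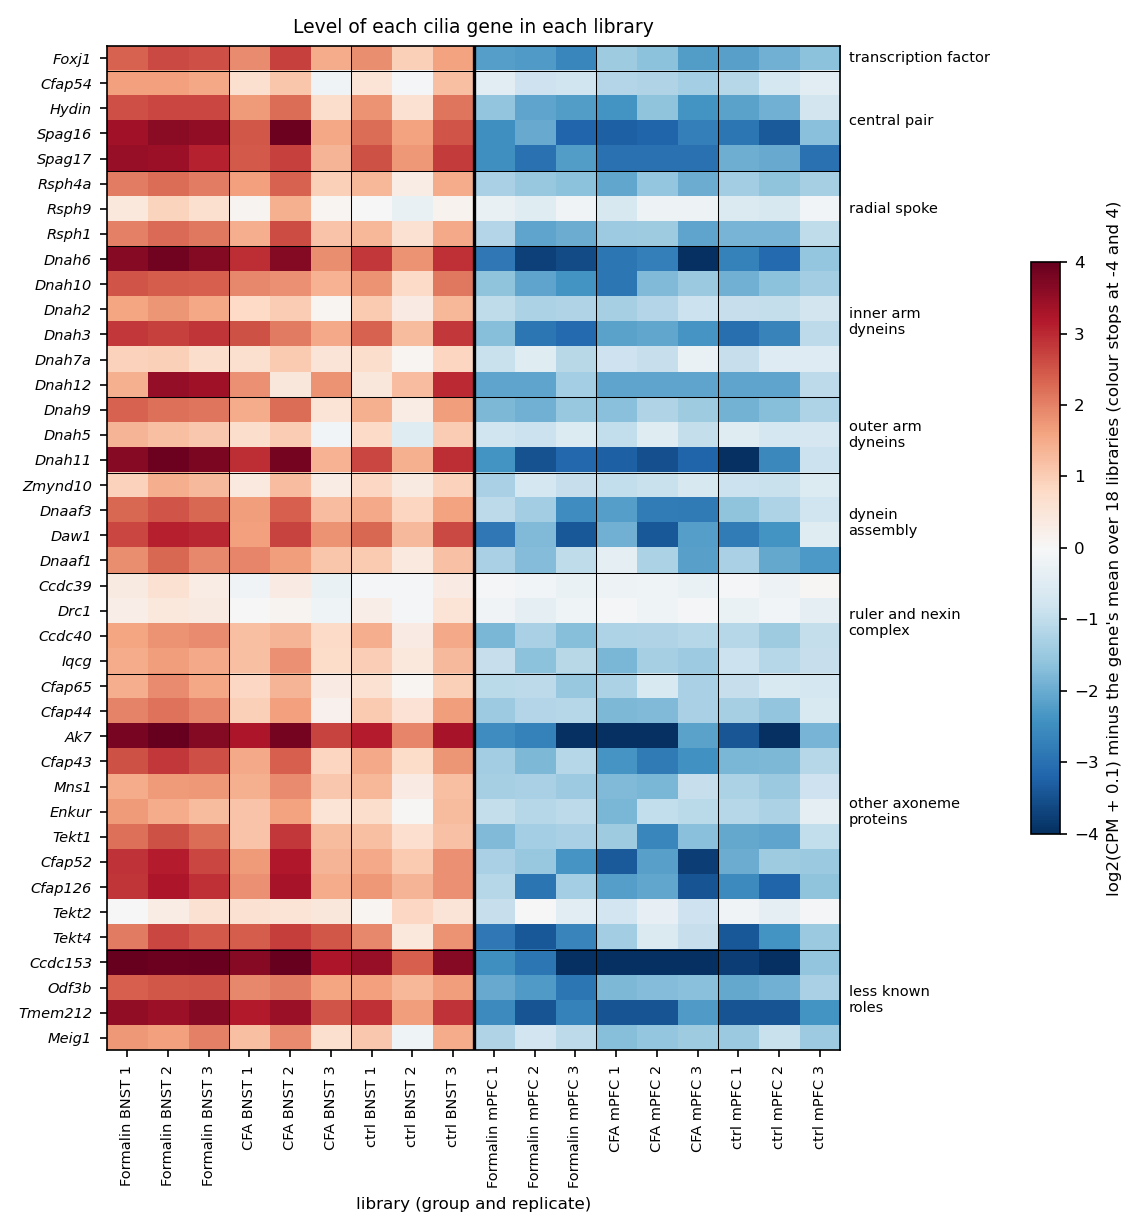
Level of each member in each library, as log2(CPM + 0.1) minus the mean of that gene over the 18 libraries, with genes in rows by role and libraries in columns by group. The BNST columns are red and the mPFC columns blue for nearly all genes, while Ccdc39, Drc1, Rsph9 and Tekt2 differ little between the regions, and CFA replicate 2 and ctrl replicate 2 of the BNST depart from their groups in opposite directions.

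Foxj1, the transcription factor required for motile cilia, had 66.2, 79.2 and 76.6 CPM in the Formalin libraries, 47.8, 85.5 and 36.1 CPM in the CFA libraries and 46.4, 24.8 and 38.8 CPM in the ctrl libraries of the BNST, and 1.98 to 4.67 CPM in the mPFC. All Formalin libraries lay above all ctrl libraries, and CFA replicate 2 was the highest of the 9. Its log2 fold change after formalin was 1.01 (SE 0.28) and missed the threshold by edgeR at an adjusted p of 0.107. After CFA it was 0.62 (SE 0.28, adjusted p = 0.122). The difference between the regions in controls, 3.45 (SE 0.33, adjusted p = 1.7e-06), was far past it.

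Among the 4 members grouped here under the central pair, which acts as the regulator at the core of the axoneme, Cfap54 had the highest CPM. Its levels were 57.0, 56.6 and 53.8 CPM after formalin, 28.6, 39.1 and 16.5 CPM after CFA and 26.6, 17.6 and 41.9 CPM in controls of the BNST, and 6.95 to 13.3 CPM in the mPFC. The Formalin libraries lay above the other 6 without overlap, and the CFA and ctrl libraries overlapped. Cfap54 was called higher after formalin than after CFA with a log2 difference of 0.99 (SE 0.30, adjusted p = 0.0371), while against controls it had 0.96 (SE 0.30, adjusted p = 0.130). Spag17, a scaffold of the central pair, followed the same order at a lower level, with 8.90, 8.46 and 6.55 CPM after formalin, 4.25, 5.22 and 1.93 CPM after CFA and 4.57, 2.55 and 5.39 CPM in controls. It was at 0 in all 3 CFA libraries of the mPFC. Its log2 difference between formalin and CFA was 1.07 (SE 0.35, adjusted p = 0.0491), and against controls formalin had 0.93 (SE 0.35, adjusted p = 0.168). Hydin, a large projection protein, and Spag16 were not called in either contrast with controls. Their log2 values were 1.01 and 1.37 after formalin and 0.04 and 0.84 after CFA. When 1 library was left out in turn, the call between formalin and CFA was lost in 7 of 18 fits for Cfap54 and in 14 of 18 for Spag17, in both cases without any 1 of the Formalin libraries and without CFA replicate 1 or 3 of the BNST, with an adjusted p of at most 0.109 and 0.145. Spag17 overlaps Wdr3 on the other strand.

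The inner arm dynein heavy chains are motors that shape the bend of the cilium. Dnah6 was the one with the most CPM, at 85.0, 100.3 and 87.4 CPM after formalin, 53.6, 88.3 and 24.8 CPM after CFA and 48.3, 24.0 and 52.4 CPM in controls of the BNST, against 0.322 to 2.23 CPM in the mPFC. Its log2 fold change after formalin was 1.13 (SE 0.40, adjusted p = 0.162), without overlap between the groups, and CFA spanned both. Dnah2 had 40.01, 45.5 and 39.6 CPM after formalin, 23.2, 27.4 and 14.0 CPM after CFA and 27.6, 16.8 and 33.6 CPM in controls. Formalin lay above both other groups, and Dnah2 had the smallest adjusted p of the members between formalin and CFA, 0.0117, with a log2 difference of 0.95 (SE 0.23). Against controls its values were 0.68 (SE 0.23, adjusted p = 0.140) after formalin and −0.27 (SE 0.23, adjusted p = 0.415) after CFA. The call between formalin and CFA was kept when any 1 of the 18 libraries was left out, with an adjusted p of at most 0.0483. Dnah10 had 52.0, 48.1 and 47.5 CPM after formalin, 34.4, 31.7 and 23.6 CPM after CFA and 31.6, 15.4 and 38.8 CPM in controls. Its Formalin libraries also lay above the other 6, and CFA and controls overlapped. The other inner arm chains, Dnah3, Dnah7a and Dnah12, had log2 values of 0.53, 0.28 and 1.14 after formalin, none of them called. Dnah7a has the near-identical copies Dnah7b and Dnah7c, and since the treatment of multiple-mapping reads is not given in the sources used here its counts are uncertain, and Dnah12 had as few as 8 counts in a BNST library.

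Of the 3 outer arm heavy chains, the motors that set the beat frequency, Dnah9 had 62.6, 56.8 and 53.7 CPM after formalin, 34.7, 57.9 and 17.8 CPM after CFA and 33.2, 14.9 and 38.8 CPM in controls of the BNST. The Formalin libraries did not overlap the ctrl libraries, and CFA replicate 2 reached the formalin level. The log2 fold change after formalin was 0.996 (SE 0.37, adjusted p = 0.169). Dnah11 had 1.30 and Dnah5 had 0.66 after formalin, and neither was called. Dnah5 kept 9.40 to 13.5 CPM in the mPFC libraries, where Dnah11 had 0.0525 to 1.36 CPM.

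Radial spokes carry signals from the central pair to the dyneins. Rsph4a, a protein of the spoke head, had 42.7, 49.4 and 43.2 CPM after formalin, 32.5, 53.4 and 19.9 CPM after CFA and 25.9, 12.6 and 28.8 CPM in controls of the BNST, and 2.36 to 4.14 CPM in the mPFC. Its log2 fold change was 1.01 (SE 0.31, adjusted p = 0.125) after formalin and 0.65 (SE 0.31, adjusted p = 0.138) after CFA. Rsph1 and Rsph9, also of the spoke head, had 0.94 and 0.71 after formalin and 0.69 and 0.74 after CFA, and none was called. The spokes were the class with the highest median after CFA among those of more than 1 gene, 0.69. In CFA replicate 2, Rsph9 reached 35.2 CPM, against 13.9 and 13.6 CPM in the other CFA libraries, and it was chosen after its values were seen.

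Ccdc39 and Ccdc40 form the ruler that places the inner arms and spokes, and Drc1 and Iqcg belong to the nexin-dynein regulatory complex that links the doublets. Ccdc39 had 51.3, 60.7 and 49.1 CPM after formalin, 36.1, 50.6 and 33.6 CPM after CFA and 37.7, 38.4 and 50.5 CPM in controls of the BNST, and it stayed at 33.1 to 41.9 CPM in the mPFC. The groups overlapped, and its log2 difference between the regions in controls was only 0.15 (SE 0.14, adjusted p = 0.445). Its partner Ccdc40 had 20.98, 24.3 and 26.2 CPM after formalin, 16.2, 18.1 and 11.8 CPM after CFA and 19.2, 8.84 and 20.2 CPM in controls, against 1.89 to 3.54 CPM in the mPFC. The partners thus differed in how far their levels differed between the regions, with a log2 difference of 2.40 (SE 0.26, adjusted p = 1.67e-06) for Ccdc40. Drc1, chosen after its values were seen, had 26.5, 29.5 and 28.1 CPM after formalin, 21.9, 23.6 and 19.3 CPM after CFA and 26.3, 21.1 and 32.4 CPM in controls. The Formalin libraries lay above the CFA libraries without overlap, with a log2 difference of 0.38 (SE 0.13, adjusted p = 0.0532), and the controls overlapped both. This class had the lowest median after formalin, 0.46, and none of its 4 members was called in the BNST.

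Dynein arms are put together in the cytoplasm before they enter the cilium, with the help of Zmynd10, Dnaaf1 and Dnaaf3, and Daw1 is known from algae and fish as an aid to their transport. Zmynd10 had 9.19, 13.4 and 11.95 CPM after formalin, 6.40, 11.4 and 5.92 CPM after CFA and 8.65, 6.29 and 9.29 CPM in controls of the BNST. Formalin and controls overlapped, and the log2 fold change was 0.52 (SE 0.23, adjusted p = 0.235). Dnaaf3 had 10.02, 11.7 and 9.99 CPM after formalin, 6.46, 10.8 and 4.84 CPM after CFA and 5.87, 3.69 and 6.25 CPM in controls, with 1.01 (SE 0.29, adjusted p = 0.109) after formalin. In the mPFC, Dnaaf3 had 0.355, 0.198 and 0.193 CPM after CFA, against 0.578, 0.790 and 1.09 CPM in controls. Dnaaf1 and Daw1 had 1.18 and 0.78 after formalin, and neither was called. Dnaaf3 and Tnni3 overlap on the same strand, and Dnaaf1 and Taf1c on opposite strands.

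The remaining axoneme proteins hold the inner dynein arms to the doublet (Cfap43, Cfap44), lie inside the doublet (Cfap52, Cfap126, Enkur, Mns1 and the tektins), or are Cfap65 and the adenylate kinase Ak7. Cfap65 had 68.7, 93.0 and 74.1 CPM after formalin, 44.6, 64.4 and 31.6 CPM after CFA and 38.6, 26.3 and 49.2 CPM in controls of the BNST. Formalin lay above both other groups, and its log2 fold change of 1.05 (SE 0.27) came close to the threshold by edgeR with an adjusted p of 0.0874. DESeq2 called Cfap65, with an adjusted p of 0.0039. Ak7 had 46.0, 52.1 and 42.2 CPM after formalin, 31.2, 47.1 and 21.4 CPM after CFA and 29.4, 12.6 and 32.1 CPM in controls, against 0.0591 to 0.818 CPM in the mPFC. Mns1 had 15.9, 18.5 and 18.9 CPM after formalin, 15.3, 20.9 and 12.1 CPM after CFA and 14.2, 7.03 and 13.1 CPM in controls, and 1.52 to 3.11 CPM in the mPFC. For both, formalin lay above the controls without overlap while CFA overlapped each group.

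Tekt4, a tektin of the doublet wall, was the member called after CFA. It had 4.30, 6.61 and 5.61 CPM after formalin, 5.52, 6.996 and 5.68 CPM after CFA and 3.83, 1.30 and 3.53 CPM in controls of the BNST. All CFA libraries and all Formalin libraries lay above all controls, and the treated groups overlapped. The log2 fold change after CFA was 1.08 (SE 0.36, adjusted p = 0.0390) and after formalin 0.94 (SE 0.36, adjusted p = 0.172). The call after CFA was lost in 6 of the 18 fits that left out 1 library, those without ctrl replicate 2, Formalin replicate 3, CFA replicate 1 or CFA replicate 2 of the BNST and those without Formalin replicate 1 or CFA replicate 3 of the mPFC, with an adjusted p of 0.0264 to 0.129. Of the 4 largest log2 values after formalin, 3 also stood in this class, at 1.43 for Cfap52, 1.37 for Cfap126 and 1.32 for Tekt1, with standard errors of 0.40, 0.42 and 0.39 and adjusted p values of 0.103, 0.125 and 0.115. Tekt2, the only member below 0 after formalin, had 2.36, 2.93 and 3.70 CPM in the Formalin libraries, against 2.53, 4.25 and 3.41 CPM in the ctrl libraries of the BNST. These 4 were chosen after their values were seen.

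The last 4 members mark ependymal cells but have less known roles. Ccdc153 had 49.0, 41.7 and 43.0 CPM after formalin, 34.1, 44.98 and 25.7 CPM after CFA and 30.8, 14.3 and 34.5 CPM in controls of the BNST, and at most 0.818 CPM in the mPFC. Its log2 fold change after formalin was 0.75 (SE 0.37, adjusted p = 0.284), although the groups did not overlap. Tmem212, a membrane protein, had 12.9, 11.8 and 13.8 CPM after formalin, 9.82, 11.9 and 6.20 CPM after CFA and 8.22, 3.46 and 8.17 CPM in controls. Odf3b, a relative of an outer dense fibre protein of the sperm tail, had 14.6, 15.6 and 15.7 CPM after formalin, 10.4, 11.7 and 8.26 CPM after CFA and 8.59, 6.86 and 8.79 CPM in controls. The Formalin libraries lay above the other 6 BNST libraries. Odf3b rose after formalin by 0.92 on the log2 scale (SE 0.18, adjusted p = 0.0420) and was higher than after CFA by 0.60 (SE 0.18, adjusted p = 0.0298). The first of these calls was lost in 13 of the 18 fits that left out 1 library, and kept without ctrl replicate 3, without any 1 of the CFA libraries of the BNST and without ctrl replicate 3 of the mPFC, with an adjusted p of 0.0019 to 0.124, and the fold change kept its direction in all 18 at 0.82 to 0.99. The second was lost in 5, those without a Formalin library or without CFA replicate 1 or 3 of the BNST, with an adjusted p of at most 0.113. Meig1, known from sperm formation in mice, had 0.88 after formalin and was not called.

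**Figure D4:**
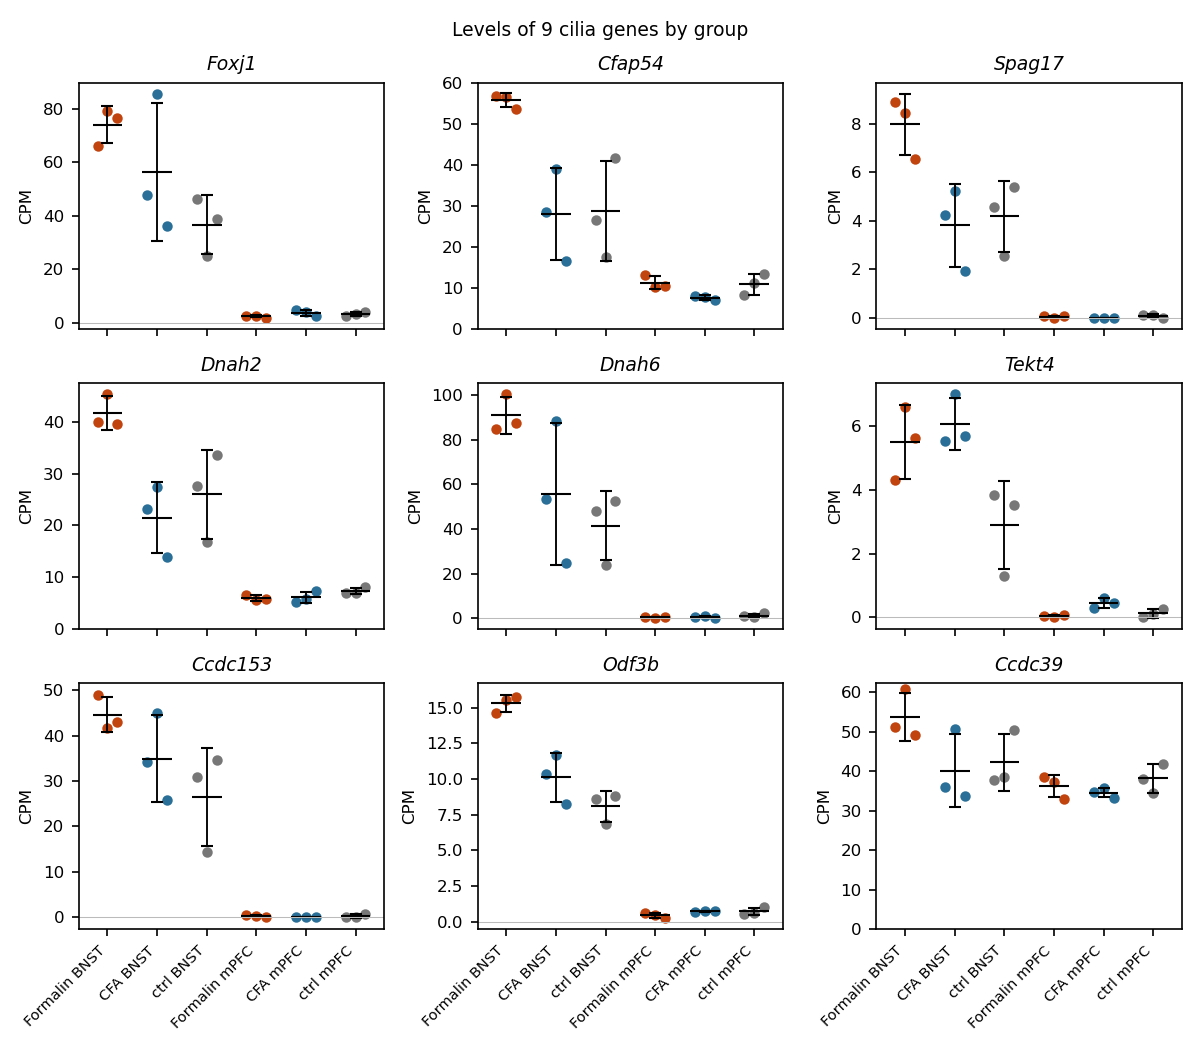
CPM of 9 members in the 6 groups, with 1 point per library and black bars for the mean ± SD (n = 3 per group). In Cfap54, Spag17, Dnah2 and Odf3b the 3 Formalin BNST libraries lie above the other BNST libraries, Tekt4 is also raised after CFA, and Ccdc39 overlaps between the mPFC and the BNST.

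In the mPFC, no member was called after formalin or after CFA, or between them. The shares of all genes called higher were 0.0632%, 0.337% and 0.374% in these 3 comparisons, and those called lower 0.205%, 0.295% and 0.558%. The median log2 fold change of the members was −0.17 after formalin, −0.30 after CFA and 0.13 between formalin and CFA, against −0.0036, 0 and −0.0015 over all genes. At an unadjusted p under 0.05, edgeR gave 0 members after formalin, against 7.02% of all genes higher and 7.07% lower. After CFA it gave 1 higher and 2 lower, against 7.24% and 6.52%, and between formalin and CFA 2 higher and 1 lower, against 7.11% and 8.3%. DESeq2 called 0, 0 and 1 in these comparisons. Some of these medians rest on very few counts. With Spag17, at 0 in every CFA library, set to a floor of 3 counts over the group and Dnah12 left out, the median after CFA was −0.28. Control replicate 3 of the mPFC had the highest level of the 3 controls for 32 members and the highest of all 9 mPFC libraries for 23. Without it, the median was 0.04 after formalin and −0.06 after CFA, so the direction after formalin rested on this library.

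Whether a treatment acted differently in the regions was tested as an interaction. For formalin, the change in the BNST exceeded that in the mPFC for all 40 members, with a median of 1.02 on the log2 scale against −0.03 over all genes, but 0 members were called by edgeR, against 0.0474% of all genes called higher. At an unadjusted p under 0.05, 11 members were higher, against 6.44% of all genes, and DESeq2 called 3. Ctrl replicate 2 of the BNST was the lowest control there for 37 members. Ctrl replicate 3 of the mPFC was the highest control there for 32. Both enter this difference in the direction that raises it, and its median without them is not given here. For CFA, Dnaaf3 was called higher and 0 members lower, against 1.15% of all genes called higher. Its change after CFA in the BNST minus that in the mPFC was 2.16 (SE 0.59, adjusted p = 0.0449). It was made of 0.48 (SE 0.30, adjusted p = 0.250) in the BNST and −1.67 (SE 0.52, adjusted p = 0.146) in the mPFC. The call was lost in 12 of the 18 fits that left out 1 library, and kept without ctrl replicate 1 or 3 or CFA replicate 3 of the BNST and without ctrl replicate 1 or Formalin replicate 1 or 3 of the mPFC. Without CFA replicate 2 of the BNST the count for formalin was 3. With the animal number as a block, for the libraries whose brain gave both regions, 1 member was called for formalin (Dnah6) and 3 for CFA (Dnah6, Ccdc153 and Cfap52), and Dnaaf3 was not among them. The median for CFA was 0.66, against 0.02 over all genes, and it was 0.29 without ctrl replicate 3 of the mPFC and 0.30 without CFA replicate 2 of the BNST.

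The members varied together across libraries. Over the 18 libraries, which share the contrast of the regions, the correlation of a member with the mean of the others on the log2 scale had a median of 0.98, and it was above 0.9 for 36 members. Over the 9 BNST libraries the median was 0.93, and 28 members were above 0.9. Tekt2 (−0.39) and Dnah12 (0.36) departed most. A pair of libraries departed from their groups in opposite directions. CFA replicate 2 was the highest of the CFA libraries for 35 members and above the Formalin mean for 20, and its median ratio to the mean of the other CFA libraries was 1.76. Ctrl replicate 2 was the lowest of the controls for 37 members, although it had the most choroid plexus RNA of the 3. Across the 9 BNST libraries, the mean level of the members on the log2 scale had a correlation of r = 0.66 (rho = 0.70) with that of the choroid list and of r = 0.53 (rho = 0.70) with Ttr, given as a description of 9 libraries that share treatment and dissection. It was 0.60 (rho = 0.63) for the list of neuroblasts and dividing cells, −0.03 (rho = −0.10) for the striatal list and −0.38 (rho = −0.35) for the habenular and thalamic list.

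The excess in CFA replicate 2 was uneven among the members. Its ratio to the mean of the other CFA libraries was 3.66 for Spag16, 3.21 for Cfap52, 3.14 for Tekt1 and 3.14 for Cfap126, but 0.96 for Dnah3 and 0.35 for Dnah12. Across the 40 genes, the log2 of this ratio had a correlation of 0.46 with the log2 ratio of Formalin to ctrl, 2 ratios that share no library, and of −0.19 with the log2 exon length. The points are genes of the same libraries and are not independent replicates. The 4 members with the largest ratio in CFA replicate 2 were also the 4 with the largest fold change after formalin. Dnah12 is the exception, with 10 counts in CFA replicate 2, against 26 and 30 counts in the other CFA libraries. In the BNST, the correlation with the choroid plexus level was 0.88 for Cfap126, 0.87 for Tekt1, 0.85 for Cfap52 and 0.81 for Spag16. Over the 40 members it ran from 0.07 for Tekt2 to 0.88, and Rsph9 had 0.82. The part of the choroid plexus RNA in this pattern was not tested.

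**Figure D5:**
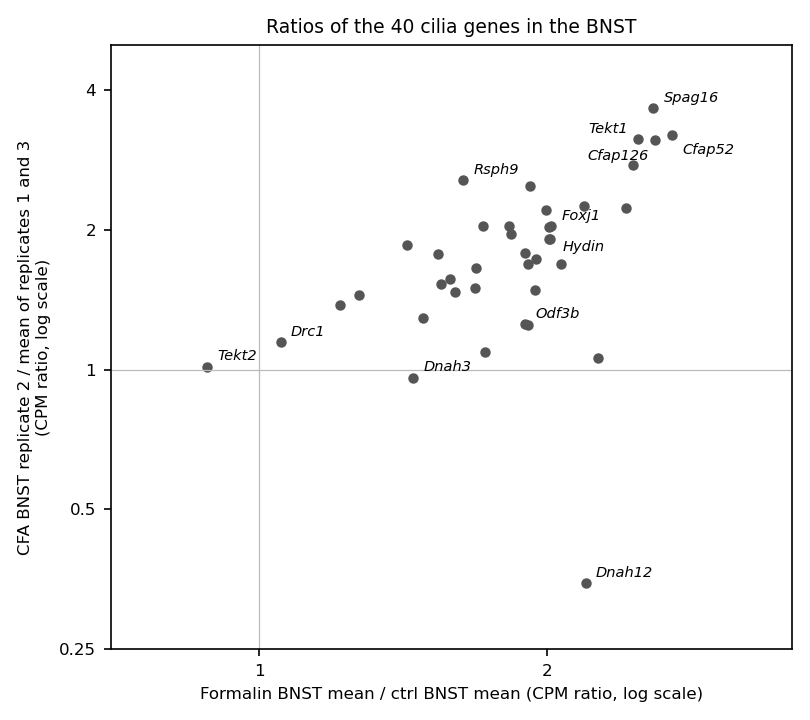
Ratio of CFA replicate 2 to the mean of CFA replicates 1 and 3 (vertical) against the ratio of the Formalin mean to the ctrl mean (horizontal) in the BNST, 1 point per member on log axes. Spag16, Cfap52, Tekt1 and Cfap126 lie at the top right, Tekt2 and Drc1 near 1 on both axes, and Dnah12 at 0.35 on the vertical axis.

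Other genes of the pathway were listed by role. Of 110 other motile cilia genes listed, 106 were tested. In the BNST, 1 of them (Vwa3b) was called higher after formalin and 4 in formalin over CFA (Vwa3b, Rsph10b, Dnah1 and Lca5l), with none lower in either comparison, against 0.195% and 3.91% of all genes called higher. The count in formalin over CFA is thus near the share over all genes. Their median log2 fold change was 0.75 after formalin, 0.34 after CFA and 0.39 between them. In the control BNST, 78 were called higher and 0 lower than in the control mPFC, against 14.7% of all genes called higher. The 3 with the highest CPM, Dnal1, Cfap36 and Tppp3, are also used outside motile cilia. The 39 genes of intraflagellar transport and the BBSome, which serve primary cilia too, had medians of 0.06 after formalin and 0.06 after CFA. Kif17, a transport motor, was called lower after each treatment, against 0.105% of all genes after formalin and 7.06% after CFA. Ttc30a1 was called higher after CFA, against 4.89% of all genes. In controls, 9 of the 39 were called higher in the BNST than in the mPFC, against 14.7% of all genes. Of 17 tested regulators of multiciliation, 0 were called after formalin by edgeR. At an unadjusted p under 0.05, 4 of them were higher and 0 lower, against 9.26% of all genes higher. After CFA, Trp73 was called higher and Rfx1 and Ccno lower, against 4.89% of all genes higher and 7.06% lower. Ccno was called higher in formalin over CFA, against 3.91% of all genes. With 17 genes tested, these counts are near the shares over all genes. Of 8 tested ependymal genes without a role in cilia, S100b was called higher after CFA and lower in formalin over CFA. The shares of all genes were 4.89% and 2.96%. The median of these 8 genes was 0.60 after formalin and 0.44 after CFA. In the control BNST, 7 were called higher than in the control mPFC, against 14.7% of all genes.

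The genes most like the members were found by correlation with the members' mean level over all 18 libraries, which describes the regional contrast above all. Among genes outside the list with a mean of at least 1 CPM, the closest were Ttc21a (r = 0.998), Zfp474, Armc3, Wdr63, Ccdc170, Ccdc180, Scnn1a, 1700024G13Rik, Sntn and Rarres2 (r = 0.991). Of these 10, 6 were on the list of other motile cilia genes and Rarres2 on that of ependymal genes without a role in cilia. Ttc21a had 43.9 CPM after formalin, 27.2 CPM after CFA and 22.1 CPM in controls of the BNST, and 0.805 to 1.12 CPM in the mPFC groups. Over the 9 BNST libraries alone, Ttc21a was again the first (r = 0.993), and 5 of the 10 closest were on the list of other motile cilia genes.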

How the data were processed

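Messenger RNA of 18 libraries was sequenced. According to the study and its notes, reads were trimmed with Trimmomatic (0.39), aligned to the mouse genome mm10 (GRCm38) with HISAT2 (2.2.1), sorted with SAMtools and counted with featureCounts (2.0.1). The deposited values are the authors' raw counts per gene, with no normalization. Strand and multiple-mapping settings are not given in the sources used here, so overlapping and near-identical genes are uncertain. Symbols and exon lengths came from GENCODE annotation of GRCm38, matched by Ensembl identifier for 55141 of 55401 genes.

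Groups came from the labels. Genes were filtered with filterByExpr (minimum count 10, minimum total 15), which kept 18994 genes, scaled by TMM and fitted with the edgeR (4.0.16) robust quasi-likelihood model in R (4.3.3), with 6 groups and 12 residual degrees of freedom. P-values were adjusted by Benjamini-Hochberg over all genes tested. The standard error is the size of the log2 fold change divided by the square root of its F statistic, an approximation. Correlations used log2(CPM + 0.1). Totals of 14781315 to 23408503 counts limit the precision of members with few counts in the mPFC. Replicates differed by 3.80 to 79.2 times the counting noise (chi-square per degree of freedom), so none was counted as a duplicate. The model was tested on simulated data before use.

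Alternatives were RLE scaling, DESeq2 (1.42.0), no filter, a filter of 1 CPM and 200 counts in total, each region alone, lane 2 alone, no minimum fold, replicate and animal blocks, and each library left out in turn. Lanes and animal numbers came from the column names of the study's supplementary tables, joined by equal counts.

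The members and all gene lists were chosen with earlier results of these data known. Values in every library are given for Foxj1, for the member of each role with the highest mean CPM, and for members called in any comparison, with at most 12 of each comparison. Lists give counts and up to 3 examples of highest CPM. Names outside this rule are given where a count was 5 or fewer, for the 11 members that DESeq2 called after formalin, or as chosen after their values were seen. The tables of differential expression in the supplement were not used for values. The calls after CFA in the list of other motile cilia genes are not reported here.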

Additional observations from a re-analysis of the deposited data

Results flagged for a closer look

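Dnaaf3, which helps to assemble dynein arms, was the single member whose change after CFA differed between the regions by the test of the difference itself. The change in the BNST minus that in the mPFC was 2.16 on the log2 scale (SE 0.59, edgeR adjusted p = 0.0449). The levels behind it were 6.46, 10.8 and 4.84 CPM after CFA, against 5.87, 3.69 and 6.25 CPM in controls of the BNST, and 0.355, 0.198 and 0.193 CPM after CFA, against 0.578, 0.790 and 1.09 CPM in controls of the mPFC. The groups overlapped in the BNST and not in the mPFC, where the gene was close to the lowest levels measured. The difference ran from 1.77 to 2.51 when 1 library was left out in turn, and the largest adjusted p was 0.124. Dnaaf3 and Tnni3 overlap on the same strand, and the part of this overlap was not tested.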

How the results depend on the processing

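The count of 38 members higher in the control BNST than in the control mPFC stayed at 35 to 38 under every alternative run, and 36 with the animal number as a block. The calls between treatments did not hold in this way. Their counts under the alternatives are given here without the share of all genes called in the same fit. For formalin against ctrl in the BNST, DESeq2 called 11 members higher, and the 9 BNST libraries alone and lane 2 alone gave 0. For CFA against ctrl, DESeq2 called 2, and the 9 libraries alone, lane 2 alone and the replicate block gave 0, while lane 2 called 1 lower (Drc1). For formalin against CFA, DESeq2 called 7, the 9 libraries alone 0 and the replicate block 1. In the mPFC, its 9 libraries alone called 1 lower after CFA (Cfap43) and 2 higher in formalin over CFA (Cfap54 and Cfap43), and DESeq2 and lane 2 each called 1 lower in formalin over CFA (Tekt4). For the formalin difference between regions, DESeq2 called 3, no filter 1 and the animal block 1. For that after CFA, DESeq2 called 2, the animal block 3, and lane 2 called 0 higher and 1 lower (Drc1). Over the fits that left out 1 library, the counts ran from 0 to 14 for formalin against ctrl, 0 to 7 for CFA against ctrl, 1 to 21 for formalin against CFA, 0 to 1 lower for formalin against CFA in the mPFC, 0 to 3 for the formalin difference between regions and 0 to 2 higher and 0 to 1 lower for that after CFA. The summed level of the members was 1.54 to 2.12 times as high after formalin as in controls of the BNST. Ccdc39 turned to −0.0020 between the regions without ctrl replicate 3 of the BNST and ran up to 0.22 when another library was left out. The cause of these differences was not tested.

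Libraries with the same replicate number in a region had correlated deviations of −0.19 to 0.30, over 0.1 in 4 of 18 pairs, and those with the same animal number −0.03 to 0.16, over 0.1 in 2 of 8, so the replicate block was not used for the values reported. Apart from the lower counts given above for CFA against ctrl and for formalin against CFA in the BNST, the replicate block changed no count. For the CFA difference between regions it called Cfap52 in place of Dnaaf3. With 3 libraries in a group, and few counts for several members in the mPFC, small changes there were not detectable.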
